A study of Mus musculus with 24 samples.

Results

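The genes described here are the carboxylesterases of the Ces1 and Ces3 subfamilies that were put forward for a closer description: Ces1b, Ces1c, Ces1d, Ces1e, Ces1f, Ces1g, Ces3a and Ces3b. They were found by symbol in a table of liver gene expression, which held a row for all 8 of them among 15582 genes, and all 8 are among the 6540 genes that passed the filter on low values. The set was chosen by gene name after fold changes with dose in the same 24 libraries had been seen, so the changes are given as a description and support nothing by themselves. The livers came from male B6C3F1 mice, the cross of C57BL/6 and C3H strains, that were 4 weeks old. Dichloroacetic acid (DCA), a pyruvate dehydrogenase kinase inhibitor that also forms when drinking water is chlorinated, was in the drinking water for 6 days at 0 (control), 1, 2 or 3.5 g/L. Each dose had 6 libraries of total RNA from frozen liver of mixed lobes, and no other treatment or genetic change is named for any group. The labels do not state that each library came from its own mouse, so the p-values measure the spread between these libraries, which may be partly technical.

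Carboxylesterases are serine hydrolases that cut ester, thioester and amide bonds in drugs, pesticides and lipids. Liver carries them at high levels, mostly in the lumen of the endoplasmic reticulum, where a short C-terminal signal recognised by KDEL receptors holds them back from secretion. Rodents have many copies of the gene that is a single CES1 in humans, and mouse Ces1c is the copy whose product leaves the hepatocyte and forms the main carboxylesterase of plasma. Ces1d, also called triacylglycerol hydrolase, draws on stored triglyceride during assembly of very low density lipoprotein (VLDL), and Ces1g takes part in hepatic lipid handling.

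Expression was given as RPKM, a read number corrected for gene length and for library depth, so levels of different genes can be set side by side per length. In control liver the 8 genes summed to 2014 ± 159 RPKM (mean ± SD, n = 6). Ces1c (778.5 ± 45.3 RPKM) and Ces3a (727.3 ± 37.9 RPKM) stood at the top, and their ranges over the 6 libraries overlapped. Ces3b (198.3 ± 26.5 RPKM) and Ces1d (128.5 ± 38.3 RPKM) came next, also with overlapping ranges, and both lay below Ces3a in every control library. Ces1f (61.6 ± 21.4 RPKM) and Ces1b (59.8 ± 17.2 RPKM) overlapped, as did Ces1g (31.3 ± 9.77 RPKM) and Ces1e (28.9 ± 11.4 RPKM) at the bottom.

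With dose the summed level of the 8 genes was lower: 1787 ± 92.7 RPKM at 1 g/L, 1176 ± 109 RPKM at 2 g/L and 1090 ± 94.5 RPKM at 3.5 g/L (mean ± SD, n = 6 each). The fall was in Ces1b, Ces1c, Ces3a and Ces3b, while Ces1f and Ces1g rose and Ces1d and Ces1e passed the test at no dose. Ces1c and Ces3a together made up 74.9% ± 2.47 of the sum in control liver and 61.9% ± 5.44 at 2 g/L (SD, n = 6). Ces1c and Ces3a kept the highest 2 mean levels at every dose. Ces1b moved from the 6th place of 8 in control liver to the 8th at 2 and 3.5 g/L, where its range overlapped that of Ces1e.

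**Figure D1:**
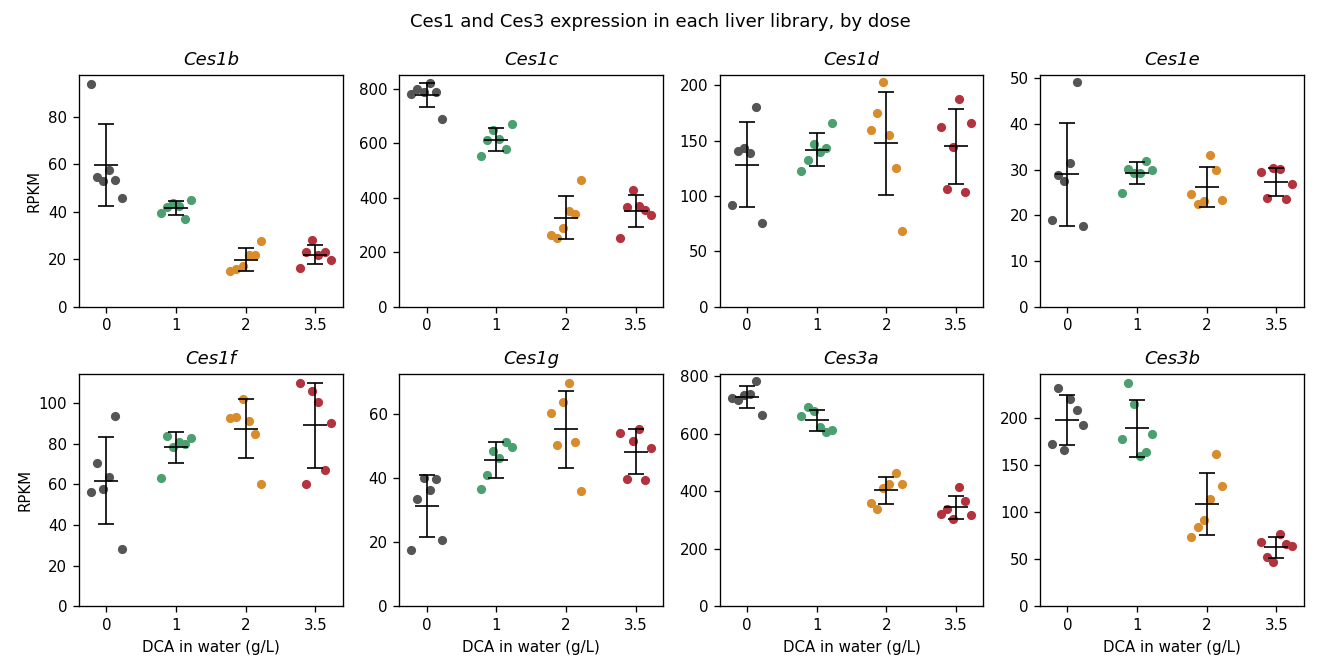
RPKM of each of the 8 genes (vertical axes, each from 0) by DCA dose in g/L, 1 point per library and 6 libraries per dose, with the mean and SD as lines. Ces1b and Ces1c lie below all control libraries at every dose, Ces3a and Ces3b at 2 and 3.5 g/L, and the points of Ces1d and Ces1e overlap control at each dose. The share of all tested genes that separate in this way was not counted.

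Changes were tested with limma on log2(RPKM + 1) over 6540 genes that reached 0.5 RPKM in 6 or more libraries, and a gene was called when its two-sided p-value, adjusted by Benjamini-Hochberg over all of those genes, was under 0.05. A fold below is the difference of log2(RPKM + 1), with its standard error (SE). At 1 g/L, Ces1g rose and Ces1b fell, 1 of the 8 genes in each direction, where 11.4% of all tested genes were called (8.35% higher and 3.03% lower). At 2 g/L, Ces1f and Ces1g rose and Ces1b, Ces1c, Ces3a and Ces3b fell, 2 and 4 of the 8, where 51.9% of all tested genes were called (41.9% higher and 10% lower). At 3.5 g/L, 2 of the 8 rose (Ces1f and Ces1g) and 4 fell (Ces1b, Ces1c, Ces3a and Ces3b), where 51.5% of all tested genes were called (38.6% higher and 12.9% lower). These shares depend on the scaling of the libraries. When libraries were scaled by median ratios, 1377 and 1525 of the 6540 genes fell at 2 and 3.5 g/L, and 1392 and 1538 rose. After quantile normalization 1311 and 1445 fell, and 1363 and 1429 rose. Under each scaling 4 of the 8 fell and 1 rose at both doses. The median log2 fold of the 8 was 0.01 against control for 1 g/L, -0.46 for 2 g/L and -0.55 for 3.5 g/L, beside 0.05, 0.12 and 0.10 over all tested genes. The comparisons with control share the 6 control libraries, so their values are given side by side. In bulk liver, fewer cells of a type and less RNA per cell cannot be told apart.

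Each library's title holds L1, L2 or L3, a tag that moves with dose and that the labels leave unexplained. All control libraries carry L1, those at 1 g/L carry L1 in 3 cases and L2 in 3, all at 2 g/L carry L2 and all at 3.5 g/L carry L3. At 3.5 g/L the tag and the dose therefore cannot be told apart, and below 3.5 g/L the values with the tag as a term of the fit are given for each member's call that they change. Relative depth ran from 0.951 to 1.131 over the libraries, at roughly 26600000 to 31700000 reads, which for these genes comes to about 830 reads at the lowest (Ces1b) and about 43890 at the highest (Ces3a). Summed markers of hepatocytes ran from 24200 to 30890 RPKM in control liver and from 18360 to 23790 RPKM at 3.5 g/L, without overlap. Most of each sum was albumin (Alb), with a mean of 21400 RPKM in control liver and 15920 RPKM at 3.5 g/L. Of the 7 hepatocyte markers, 4 fell at 2 g/L and 5 fell at 3.5 g/L, among them Alb (log2 fold -0.53 and -0.43), while Hnf4a rose at 3.5 g/L (0.43). Of all tested genes 10% and 12.9% fell at these doses. With the median-ratio scaling 4 and 6 of the 7 markers fell. After quantile normalization 3 and 4 fell, and Alb was called at neither dose (log2 fold 0 at both). The part of the hepatocyte markers in the falls described below was not tested. Of 8 tested markers of Kupffer cells, the resident macrophages, 7 fell at 3.5 g/L, and limma called 0 at 1 g/L and 0 at 2 g/L, also at an unadjusted p under 0.05 (0 and 0). Of 4 tested markers of red blood cell precursors, 4 fell at 2 g/L and 3 fell at 3.5 g/L (median log2 fold -0.81 and -0.80). Of 4 listed markers of pancreatic acinar cells only Cela1 was tested, and it fell at both doses (-0.77 and -1.10). Cela1 had a mean of 10.17 RPKM in control liver, where all 4 summed to 8.77 to 11.44 RPKM. Whether Cela1 marks acinar cells in these livers was not tested. The part of these markers in the falls of the carboxylesterases was not tested. Summed markers of sinusoidal endothelial cells ran from 43.6 to 55.7 RPKM over all libraries. Of these 6 markers, 1 rose at 1 g/L, and limma called 0 at 2 g/L and 0 at 3.5 g/L (0 and 0 at an unadjusted p under 0.05). When libraries were scaled by median ratios, 3 fell at 2 g/L and 4 at 3.5 g/L. After quantile normalization 4 fell at each of these doses. Of all 6540 tested genes, 1377 and 1525 fell at 2 and 3.5 g/L with the median-ratio scaling, and 1311 and 1445 after quantile normalization.

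Ces1c had from 690.9 to 821.7 RPKM in control liver, with a median of 788.9. It had 554 to 670.1 RPKM at 1 g/L (median 614.7), 251.8 to 466.2 at 2 g/L (median 313.5) and 253.5 to 429.1 at 3.5 g/L (median 360.9). All 18 exposed libraries lay below the lowest control library. The share of all tested genes that separate from control in this way was not counted, here or for the genes below. The log2 fold was -0.34 (SE 0.12) at 1 g/L, which was not called, -1.28 (SE 0.12) at 2 g/L and -1.16 (SE 0.12) at 3.5 g/L. At 1 g/L it was called in 4 of 35 alternatives: with the median-ratio scaling (-0.42, limma adjusted p = 0.0321), with only the groups compared (-0.34, adjusted p = 0.00939), without library 78 of 2 g/L (adjusted p = 0.0279) and without library 97 of 3.5 g/L (adjusted p = 0.0432). The mean level at 2 g/L was 0.42 of control. Between 2 and 3.5 g/L no further difference was detected, with a 95% interval of the log2 difference from -0.13 to 0.37.

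Ces1b, the copy that lies next to Ces1c, had 45.95 to 93.9 RPKM in control liver (median 54.1). It had 36.85 to 45.02 RPKM at 1 g/L (median 42.1), 15.2 to 27.7 at 2 g/L (median 19.2) and 16.2 to 28.0 at 3.5 g/L (median 22.4). As for Ces1c, every exposed library lay below every control library, though the highest library at 1 g/L came close to the lowest control. The log2 fold was -0.48 (SE 0.15) at 1 g/L, -1.54 (SE 0.15) at 2 g/L and -1.38 (SE 0.15) at 3.5 g/L. From 2 to 3.5 g/L it differed by 0.16 on the log2 scale, with a 95% interval from -0.15 to 0.46. The call at 1 g/L held in 24 of 35 alternatives: without control library 3, which stood at 93.9 RPKM, the fold was -0.34 (limma adjusted p = 0.0989), and with the title tag as a term it was -0.47 (adjusted p = 0.212). That call was also lost without control library 6 or without library 50, 51, 52, 53 or 54 of 1 g/L (limma adjusted p from 0.0508 to 0.0735).

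The ratio of Ces1b to Ces1c was lower at the higher doses. Ces1b stood at 0.077 ± 0.021 of Ces1c in control liver, and with rising dose at 0.068 ± 0.0025, 0.061 ± 0.0024 and 0.062 ± 0.0029 (mean ± SD, n = 6 each). The ratios at 2 g/L (0.0577 to 0.0640) and at 3.5 g/L (0.0587 to 0.0653) all lay below the lowest control ratio of 0.0665. Control library 3 set the spread in control liver, since its ratio was 0.12 against a median of 0.068. Over the 24 libraries, with the mean of each dose subtracted, log2(RPKM + 1) of the 2 genes correlated with a Pearson r of 0.77, and with an r of 0.96 over the 21 libraries left without control 3, control 8 and library 78 of 2 g/L, a choice made after their values were seen. The 2 genes share libraries and, as described next, sequence.

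All 8 genes lie on mouse chromosome 8, given here in the GRCm38.p6 assembly of GENCODE M21, which has the mm10 coordinates. The Ces1 genes, with Ces1a and Ces1h at the ends, stand in a row of 360 kilobases on the minus strand. Ces1b (chr8:93056725-93080017) and Ces1c (chr8:93099015-93131283) are neighbours, 19.0 kilobases apart. Ces1d (chr8:93166072-93197804), Ces1e (chr8:93201218-93229631), Ces1f (chr8:93256236-93279766) and Ces1g (chr8:93302369-93337209) follow. Ces3a (chr8:105048576-105061928) and Ces3b (chr8:105083733-105093929) lie 11.7 megabases beyond the end of Ces1h on the plus strand, next to the Ces2 genes. The 2 pairs that fell are also the 2 most alike pairs in coding sequence: Ces1b and Ces1c were identical at 91.2% of aligned coding bases, and Ces3a and Ces3b at 95.3%. The other pairs of Ces1 genes ran from 73.6% to 81.6%, and pairs of a Ces1 with a Ces3 gene from 62.3% to 64.1%.

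**Figure D2:**
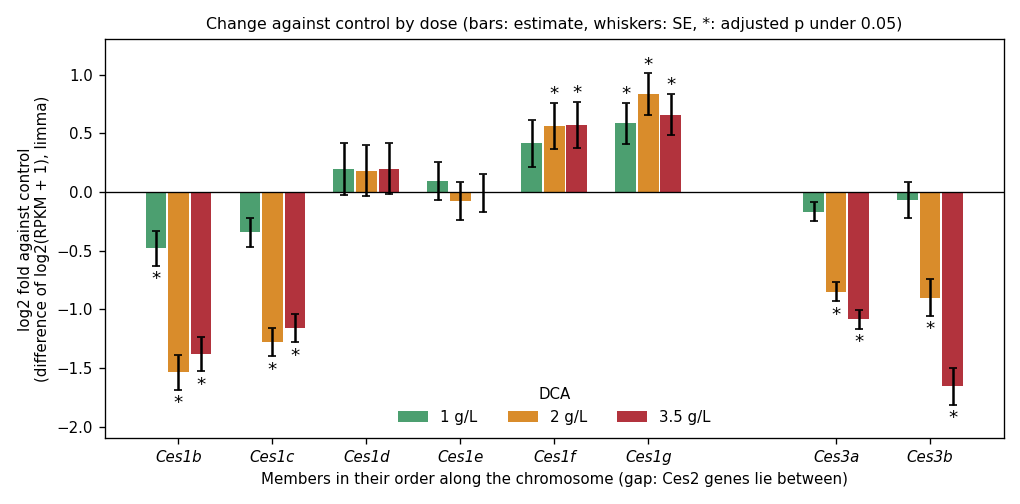
Log2 fold against control (difference of log2(RPKM + 1), limma estimate with SE) at 1, 2 and 3.5 g/L for the 8 genes in their order along the chromosome; a star marks an adjusted p under 0.05. The bars of Ces1b and Ces1c at one end and Ces3a and Ces3b at the other point down at 2 and 3.5 g/L, and those of Ces1f and Ces1g point up.

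That likeness touches how reads can be divided. Of all stretches of 50 bases in the transcript of Ces3a, 30.9% occurred unchanged in another gene, all of them in Ces3b, and of those in Ces3b 26.1% occurred in another gene, Ces3a in each case. The share was 17.0% for Ces1c, 11.6% for Ces1b and between 1.28% and 3.21% for Ces1d, Ces1e, Ces1f and Ces1g. At 100 bases it was 9.09% for Ces3a, 7.68% for Ces3b, 1.39% for Ces1c, 1.29% for Ces1b and 0 for the other Ces1 members. Read length and the handling of reads that match several genes are not given in the sources used here, so the division of reads within Ces1b and Ces1c, and within Ces3a and Ces3b, is uncertain.

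The likeness of Ces1b and Ces1c goes on upstream of the genes. RefSeq promoter windows (250 bases before to 50 after a start, GRCm38.p6) were at hand for Ces1b, Ces1c, Ces1e, Ces1g and Ces3b. In the best local alignment of the bases before the outermost annotated start, Ces1b and Ces1c had 144 aligned bases, of which 137 were identical (95.1%). Among the other pairs of these 5 genes no alignment was longer than 33 bases. The aligned stretches are shown because the neighbours that fell at the same doses differ so little there. They are printed 5′ to 3′ on the minus strand, chr8:93080018-93080161 for Ces1b and chr8:93131371-93131530 for Ces1c, with capitals for bases that differ or have no partner in the other gene.
Ces1b: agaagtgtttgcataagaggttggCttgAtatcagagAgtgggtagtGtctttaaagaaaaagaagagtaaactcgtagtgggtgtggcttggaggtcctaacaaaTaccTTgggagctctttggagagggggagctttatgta
Ces1c: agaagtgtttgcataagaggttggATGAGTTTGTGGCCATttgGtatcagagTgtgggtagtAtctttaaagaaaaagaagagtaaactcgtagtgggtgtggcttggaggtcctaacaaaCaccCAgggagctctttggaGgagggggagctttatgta

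Both stretches end inside the letters TTATGTAA, the D-box bound by PAR bZIP factors such as DBP, a motif that was chosen after these sequences were seen. Searched on both strands in windows of 300 bases, TTATGTAA was in the windows of all 4 Ces1 genes that have one, was not in that of Ces3b, and was in 0.938% of all 32851 windows of the table. The 30 bases around it are shown for the 4 genes, which include 2 that fell (Ces1b and Ces1c), 1 that rose (Ces1g) and 1 that was not called (Ces1e). Capitals mark the motif. The stretches are chr8:93080006-93080035 for Ces1b, which crosses its outermost start, chr8:93131359-93131388 for Ces1c, chr8:93229682-93229711 for Ces1e and chr8:93337423-93337452 for Ces1g, all on the minus strand.
Ces1b: gagggggagctTTATGTAAttatgctaatt
Ces1c: gagggggagctTTATGTAAttatgctaatt
Ces1e: ctgagagatatTTATGTAAgaagttgtttg
Ces1g: ggggagaaacaTTATGTAAgatgttccttg
The letters TATAAA, the TATA box, were in the windows of Ces1g and Ces3b and in 13.6% of all windows. The nuclear receptor half-site AGGTCA was in none of the 5 genes' windows and in 16.3% of all windows. CCAAT was in the windows of all of them except Ces1e, and in 37.4% of all windows. A match is a description of letters, and none of these was tested as a site. Dbp itself, whose product binds the D-box, rose at 3.5 g/L (log2 fold 1.85, SE 0.38) from a control mean of 0.22 RPKM.

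Ces3a had 665.7 to 782.9 RPKM in control liver (median 729.1) and 607.3 to 693.3 at 1 g/L (median 644). It had 337.5 to 465.5 RPKM at 2 g/L (median 418.5) and 303.7 to 416.3 at 3.5 g/L (median 330.7). All 12 libraries of the higher doses lay below control, and at 1 g/L 4 of 6 did. The log2 fold was -0.17 (SE 0.081) at 1 g/L, not called, -0.85 (SE 0.081) at 2 g/L and -1.08 (SE 0.081) at 3.5 g/L. Within 1 g/L the 3 libraries with tag L1 had 663 to 693.3 RPKM and the 3 with tag L2 had 607.3 to 625.1, without overlap. With the tag as a term, the fold at 2 g/L was -0.71 and stayed called (adjusted p = 0.00276).

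Ces3b had 165.6 to 232 RPKM in control liver (median 200.2) and 159.7 to 236.8 at 1 g/L (median 180.3). It had 73.8 to 161.7 RPKM at 2 g/L (median 102.8) and 47.4 to 76.75 at 3.5 g/L (median 64.9). The highest library at 2 g/L lay just under the lowest control library, and those at 3.5 g/L were all far below it. The log2 fold was -0.07 (SE 0.15) at 1 g/L, -0.90 (SE 0.15) at 2 g/L and -1.66 (SE 0.15) at 3.5 g/L. With the title tag as a term the fold at 2 g/L was -0.60 and was no longer called (limma adjusted p = 0.146).

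Of the 8 genes, 1 was called between 3.5 and 2 g/L, and it was Ces3b (log2 fold -0.76, SE 0.15), where 10.3% of all tested genes were called (5.54% lower and 4.79% higher). Ces3a differed by -0.23 there (SE 0.081) and was not called. Ces3a stood at 3.72 ± 0.52 times the level of Ces3b in control liver, 3.47 ± 0.38 times at 1 g/L, 3.89 ± 0.75 times at 2 g/L and 5.58 ± 0.72 times at 3.5 g/L (mean ± SD, n = 6 each). The 6 ratios at 3.5 g/L, from 4.71 to 6.45, all exceeded the highest control ratio of 4.43, and overlapped those at 2 g/L, which reached 4.89. Within doses the 2 genes correlated with an r of 0.73 (n = 24, dose means subtracted), and of 0.74 without the 3 libraries named above.

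Between 2 and 1 g/L, limma called 4 of the 8 genes lower and 0 higher (also 0 higher at an unadjusted p under 0.05), where 28.4% of all tested genes were called (5.63% lower and 22.7% higher). They were Ces1b (log2 fold -1.06), Ces1c (-0.94), Ces3a (-0.68) and Ces3b (-0.83). Among libraries with tag L2 alone, Ces3b was not called (-0.68, limma adjusted p = 0.077), and the other 3 were. By the linear slope over dose, Ces1f and Ces1g rose and Ces1b, Ces1c, Ces3a and Ces3b fell, 6 of the 8, where 50.6% of all tested genes were called (38% higher and 12.6% lower). The slope of Ces1f (0.15 per g/L) was not called with the median-ratio scaling (0.11, limma adjusted p = 0.0957), after quantile normalization (0.11, adjusted p = 0.0825), without control library 8 (0.10, adjusted p = 0.0547), without library 97 of 3.5 g/L (0.14, adjusted p = 0.052) or without control libraries 3 and 8 (0.08, adjusted p = 0.124). That of Ces1g (0.18 per g/L) was not called after quantile normalization (0.12, adjusted p = 0.059) or without control libraries 3 and 8 (0.09, adjusted p = 0.093).

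Ces1g had 17.5 to 39.9 RPKM in control liver (median 34.95) and 36.6 to 51.35 at 1 g/L (median 47.5). It had 36.0 to 69.7 RPKM at 2 g/L (median 55.9) and 39.5 to 55.2 at 3.5 g/L (median 50.4). Of the 6 libraries at each dose, 5, 5 and 4 were above the highest control library, so that each dose still overlapped control. The log2 fold was 0.58 (SE 0.18), 0.84 (SE 0.18) and 0.66 (SE 0.18). At 3.5 g/L the rise was called in all 33 alternatives, but none of them could include the title tag, which goes fully with that dose. At 1 g/L it was called in 23 of 35, and it was lost without control library 3, which had the lowest value (fold 0.44, limma adjusted p = 0.0968), with the median-ratio scaling (0.52, adjusted p = 0.0533) and with the title tag as a term (0.47, adjusted p = 0.327). The rise at that dose was also lost without control library 8 or without library 51, 52, 53 or 54 of 1 g/L (limma adjusted p from 0.0614 to 0.0779). At 2 g/L it was lost in 1 of 34, with the title tag as a term (0.61, adjusted p = 0.235).

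Ces1f, also described as a triacylglycerol hydrolase, had 28.0 to 93.7 RPKM in control liver (median 60.5) and 63.3 to 83.8 at 1 g/L (median 80.3). It had 60.1 to 102.1 RPKM at 2 g/L (median 91.8) and 59.9 to 109.9 at 3.5 g/L (median 95.4). Control overlapped each dose. The log2 fold was 0.41 (SE 0.20) at 1 g/L, not called, 0.56 (SE 0.20) at 2 g/L and 0.57 (SE 0.20) at 3.5 g/L. Without control library 8, which had 28.0 RPKM, the folds were 0.35 and 0.36 at the 2 higher doses and neither was called. Both calls were also lost when libraries were scaled by median ratios (0.39 and 0.42) or quantile normalized (0.41 and 0.44). With the title tag as a term the fold at 2 g/L was 0.44 and was not called (limma adjusted p = 0.424).

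Ces1d had 75.9 to 180.3 RPKM in control liver (median 139.8) and 122.5 to 166.2 at 1 g/L (median 142). It had 68.2 to 202.9 RPKM at 2 g/L (median 157.3) and 104 to 187.6 at 3.5 g/L (median 153.5). The log2 folds of 0.20, 0.18 and 0.20 (SE 0.22 each) were not called, and their 95% intervals ran from -0.26 to 0.65, from -0.27 to 0.63 and from -0.25 to 0.65. These intervals hold both no change and a rise of the size seen for Ces1f.

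Ces1e, known as egasyn for holding beta-glucuronidase in the endoplasmic reticulum, had 17.7 to 49.2 RPKM in control liver (median 28.2). It had 24.8 to 31.9 RPKM at 1 g/L (median 29.6), 22.4 to 33.3 at 2 g/L (median 24.03) and 23.5 to 30.3 at 3.5 g/L (median 28.1). Every exposed library was inside the control range. The log2 folds were 0.09, -0.08 and -0.01 (SE 0.16 each), with 95% intervals from -0.24 to 0.42, from -0.41 to 0.26 and from -0.34 to 0.33. At 2 g/L Ces1e was called lower in 1 of 34 alternatives, the one without control libraries 3 and 8 (-0.35, adjusted p = 0.0357).

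**Figure D3:**
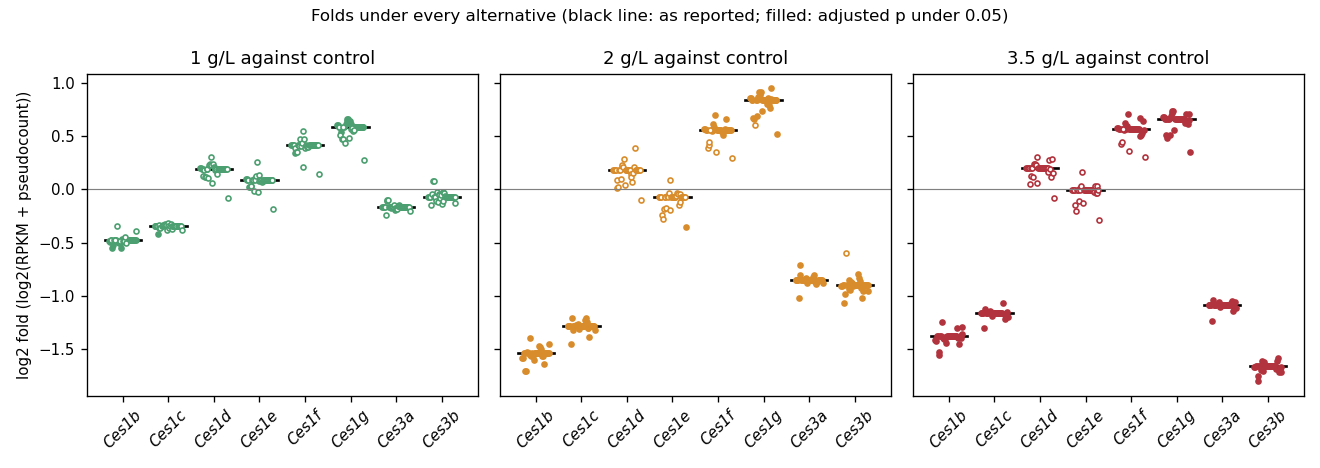
Log2 fold against control (log2 of RPKM plus the pseudocount) of each gene at 1, 2 and 3.5 g/L under every alternative way of processing, 1 point per alternative, filled where the adjusted p was under 0.05; the black line is the fold as reported. Points of Ces1b, Ces1c and Ces3a are filled throughout at 2 and 3.5 g/L, those of Ces1f are partly open, and those of Ces1d and Ces1e lie on both sides of 0.

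Within doses the highest correlations were among Ces1d, Ces1e, Ces1f and Ces1g, between Ces1b and Ces1c, and between Ces3a and Ces3b. Each of these groups is a run of neighbouring genes among the 8, and the part of nearness on the chromosome was not tested. The neighbours Ces1c and Ces1d, of 2 different groups, had an r of -0.39, and of -0.22 without control 3, control 8 and library 78 of 2 g/L. With dose means subtracted, the pairs among Ces1d, Ces1e, Ces1f and Ces1g correlated with r from 0.59 (Ces1d with Ces1e) to 0.85 (Ces1d with Ces1g) over the 24 libraries. Without control 3, control 8 and library 78 of 2 g/L, those of Ces1d with Ces1f and with Ces1g were 0.80 and 0.72, and that of Ces1d with Ces1e was 0.33. Pairs of a gene from Ces1b and Ces1c, from Ces1d to Ces1g or from Ces3a and Ces3b with a gene of another of these groups ran from -0.48 (Ces1b with Ces1d) to 0.42 (Ces1c with Ces3a). Without those 3 libraries, Ces1c with Ces3a (0.38), Ces1b with Ces3a (0.36) and Ces1e with Ces3b (0.35) were above Ces1d with Ces1e, and Ces1b with Ces1g went from -0.46 to -0.08. These are descriptions over libraries that share scaling and, in part, title tags.

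**Figure D4:**
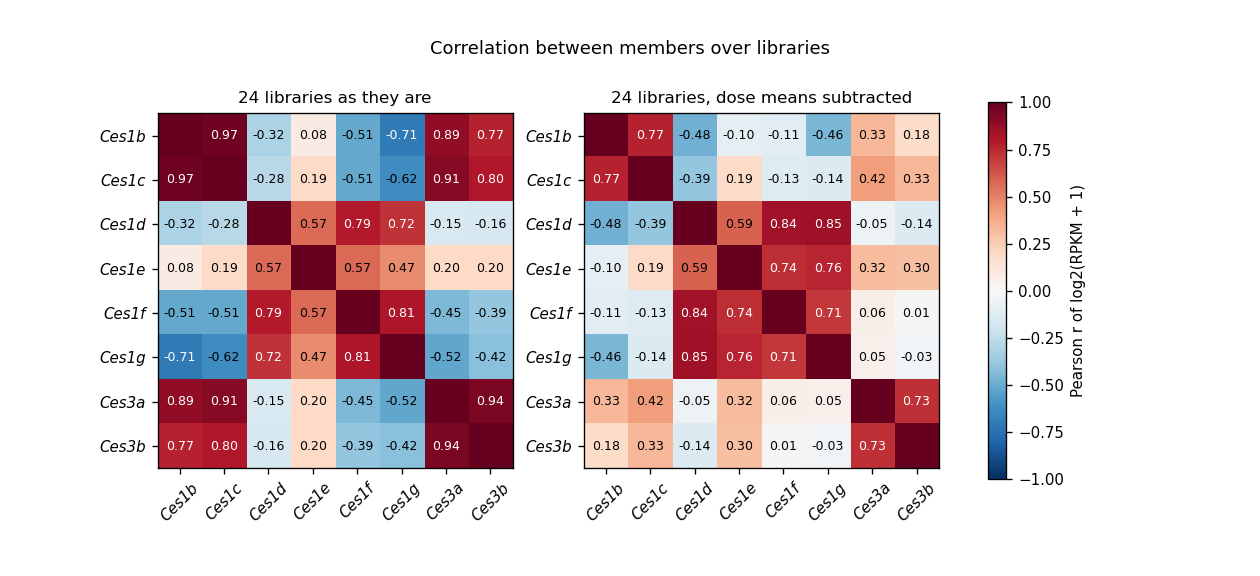
Pearson r of log2(RPKM + 1) between each pair of the 8 genes over 24 libraries, as they are (left) and with the mean of each dose subtracted (right); red is positive and blue negative. On the right, Ces1b with Ces1c (0.77), Ces3a with Ces3b (0.73) and the pairs among Ces1d to Ces1g (0.59 to 0.85) stand out.

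Single libraries stood at the ends of several ranges. Control library 8 had the lowest control value of Ces1b (45.95 RPKM), Ces1c (690.9), Ces1d (75.9), Ces1e (17.7), Ces1f (28.0) and Ces3a (665.7). Control library 7 had the highest of Ces1d, Ces1e, Ces1f and Ces3a (180.3, 49.2, 93.7 and 782.9 RPKM). Control library 3 had 93.9 RPKM of Ces1b, the highest of all libraries, beside 17.5 of Ces1g, the lowest of all. At 2 g/L, library 78 had the highest Ces1b (27.7 RPKM) and Ces1c (466.2) of its dose and the lowest Ces1d (68.2), Ces1f (60.1) and Ces1g (36.0). The same library had 172.8 RPKM of Cyp4a14, a fatty acid hydroxylase induced through the receptor PPARA, where the other 5 had 495.5 to 1127 RPKM. It had 165.4 RPKM of Ehhadh, a peroxisomal oxidation enzyme also induced through PPARA, where the others had 673 to 1559 RPKM. Control library 8 had the lowest control values of these genes as well, 0.057 RPKM of Cyp4a14 and 24.2 RPKM of Ehhadh. In library 52 of 1 g/L the adipocyte markers summed to 40.4 RPKM, against at most 8.87 in every other library, and its Ces1 and Ces3 values lay inside the range of its dose apart from the lowest Ces3b (159.7 RPKM).

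The next Ces1 gene in the row, Ces1a, was near the lower limit of detection. Its values corresponded to 11 reads in control library 3 and to 0 to 5 reads in each of the other libraries. It stayed below the filter and was not tested.

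Genes whose log2(RPKM + 1) followed each member most closely over the 24 libraries were found among the tested genes other than the 8 members. The members were left out of this search, and Ces1b with Ces1c had an r of 0.97. Ces1c was matched most closely by Hsd11b1 (r = 0.971, and 0.87 with dose means subtracted), which regenerates active glucocorticoid, then by Apoh (0.960) and Gc (0.956), which encode plasma proteins. Ces1b was matched by Fetub (0.942), Hsd11b1 (0.936) and F2 (0.932), the gene of prothrombin. Ces3a was matched by the complement genes C1ra (0.973) and C2 (0.971) and by Cyp1a2 (0.968). Ces3b was matched by the complement gene C8b (0.968), by Lifr (0.952) and by Irf5 (0.944). Ces1g was matched by Cast (0.909), Gm4952 (0.893) and Grsf1 (0.886). Over the libraries as they are, the closest matches were weaker for Ces1d (C2cd2, 0.834), Ces1f (Eps8l2, 0.825) and Ces1e (Fkbp3 and Ces2e, 0.736 each). That order did not hold with dose means subtracted. Ces1d with C2cd2 then had an r of 0.89, Ces1f with Eps8l2 0.74 and Ces1e with Fkbp3 0.75. Ces1b with Fetub had 0.69, Ces3a with C1ra 0.70, Ces3b with C8b 0.75 and Ces1g with Cast 0.81. These genes were picked for their likeness, so the r values carry no test.

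Other carboxylesterases changed in both directions. Of the 12 listed, 7 were tested: 1 fell at 1 g/L, 2 rose and 3 fell at 2 g/L, and 1 rose and 4 fell at 3.5 g/L. Among all tested genes 3.03% fell at 1 g/L. At 2 g/L 41.9% rose and 10% fell, and at 3.5 g/L 38.6% rose and 12.9% fell. Ces2a, an esterase of the neighbouring cluster, had 62.0 to 93.35 RPKM in control liver and 20.1 to 39.99 at 2 g/L, without overlap (log2 fold -1.39, SE 0.15), and fell by 1.35 on the log2 scale at 3.5 g/L. Ces4a, the gene after Ces3b, fell at all 3 doses (-0.53, -0.99 and -1.75, SE 0.14 each), from a control mean of 3.95 RPKM to 0.46 RPKM at 3.5 g/L. At 1 g/L its libraries with tag L1 (2.48 to 3.35 RPKM) overlapped control (2.72 to 5.32 RPKM), and those with tag L2 (1.67 to 2.04 RPKM) lay below both. Ces2g fell at 2 and 3.5 g/L (-0.52 and -0.72). Ces2c rose at 2 g/L (1.19, SE 0.23), from a control mean of 5.51 RPKM to 14.5 RPKM, while library 78 of that dose had 5.59 RPKM. The pseudogene Ces2d-ps rose from a control mean of 0.084 RPKM to 1.01 RPKM at 3.5 g/L (0.87, SE 0.11); its call at 2 g/L (0.28) was lost under both scalings.

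Hydrolases outside the family that act on esters and lipids were called in both directions. Of 27 tested, 2 rose and 0 fell at 1 g/L by limma (5 and 1 at an unadjusted p under 0.05). At 2 g/L 14 rose and 2 fell, and at 3.5 g/L 14 rose and 3 fell. Among all tested genes 8.35%, 41.9% and 38.6% rose at the 3 doses, and 3.03%, 10% and 12.9% fell. The median log2 fold of the 27 was 0.28 at 2 g/L and 0.33 at 3.5 g/L, beside 0.12 and 0.10 over all tested genes. The rises were led by Mgll, the monoacylglycerol lipase (1.32 at 2 g/L), Nceh1, a cholesterol ester hydrolase (1.25 at 2 g/L, 1.94 at 3.5 g/L), Abhd6, which also cleaves monoacylglycerols (1.03 and 1.48), and Ddhd2 at 3.5 g/L (1.57). Lipc, the hepatic lipase, fell (-0.55 and -0.34), as did Faah at 2 g/L (-0.28), Daglb at 3.5 g/L (-0.29) and Abhd12 at 3.5 g/L (-0.20). At 1 g/L Abhd5, the coactivator of adipose triglyceride lipase, rose (0.44) together with Lypla1 (0.23), and neither was called with the median-ratio scaling. Under that scaling 11 rose and 5 fell at 2 g/L, and after quantile normalization 10 rose and 6 fell, with a median log2 fold of 0.11 under each. Over all 6540 tested genes, 1392 rose and 1377 fell under the first scaling, and 1363 and 1311 under the second. The medians over all tested genes were then -0.001 and 0.002.

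Of 17 tested genes of triglyceride synthesis, lipid droplets and VLDL assembly, 0 rose and 1 fell at 1 g/L by limma (1 and 2 at an unadjusted p under 0.05), 10 rose and 4 fell at 2 g/L, and 11 rose and 4 fell at 3.5 g/L, where 41.9% and 38.6% of all tested genes rose and 10% and 12.9% fell at the higher doses. At 1 g/L 8.35% of all tested genes rose and 3.03% fell. Under the other 2 scalings, 1392 and 1363 of all 6540 tested genes rose at 2 g/L, and 1377 and 1311 fell. At 3.5 g/L 1538 and 1429 rose, and 1525 and 1445 fell. Of the 17 genes, 7 rose and 5 fell at 2 g/L under each of these scalings, and 9 rose and 5 fell at 3.5 g/L. Among those that rose were Fitm1, which helps form lipid droplets (1.66 at 2 g/L, 1.42 at 3.5 g/L), Mogat1, an acyltransferase of triglyceride synthesis (1.19 at 2 g/L), Gpam, the first acyltransferase of glycerolipid synthesis (1.15 at 2 g/L), and G0s2, an inhibitor of adipose triglyceride lipase (1.78 at 3.5 g/L). Among those that fell were Apoa4 (-1.14 and -1.31), Apob, the backbone protein of VLDL (-0.34, -0.52 and -0.63 at the 3 doses), and Dgat2 (-0.45 and -0.34). Apob at 1 g/L was not called after quantile normalization (-0.27, adjusted p = 0.0704).

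Of 23 tested transcription regulators of liver, 3 rose and 1 fell at 1 g/L, 7 rose and 2 fell at 2 g/L, and 10 rose and 3 fell at 3.5 g/L. Of all tested genes, 8.35%, 41.9% and 38.6% rose at these doses and 3.03%, 10% and 12.9% fell. With the median-ratio scaling 4 regulators rose and 4 fell at 2 g/L, where 1392 of all 6540 tested genes rose and 1377 fell. Nr1d1, the clock repressor REV-ERB alpha, rose at all 3 doses (0.99, 2.33 and 2.90), as did Nr1h4, the bile acid receptor FXR (0.40, 0.61 and 0.96). Nfe2l2, the regulator of antioxidant genes, rose at 2 and 3.5 g/L (1.06 and 1.49). Nr0b2, the corepressor SHP, fell at 2 g/L (-1.25), Foxo1 fell at each dose (-0.40, -0.60 and -0.24), and Esr1 (-0.56) and Cebpd (-0.21) fell at 3.5 g/L. Of the 3 KDEL receptors, which return carboxylesterases to the endoplasmic reticulum, limma called 0 at 1 g/L and 0 at 2 g/L (1 higher at each at an unadjusted p under 0.05), and Kdelr2 fell at 3.5 g/L (-0.27). With the median-ratio scaling 1 of the 3 fell at each of 1 and 2 g/L and 2 fell at 3.5 g/L, and after quantile normalization 2 fell at 2 g/L and 2 at 3.5 g/L. Of all 6540 tested genes, 340, 1377 and 1525 fell at 1, 2 and 3.5 g/L with the first scaling. After quantile normalization 1311 and 1445 fell at 2 and 3.5 g/L. All 4 PPARA target genes on the list rose at 2 and 3.5 g/L, and limma called 0 at 1 g/L (1 higher at an unadjusted p under 0.05).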

How the data were processed

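Liver RNA was measured in 24 libraries, 6 per dose, and the groups were taken from the dose in the labels. Per the labels' protocols, about 20 mg of frozen liver was used, and the library kit was strand-specific and depleted ribosomal RNA. The authors deposited RPKM per gene and library in 1 table; CASAVA, Partek, STAR 2.4 and mm10 are named in the submitters' processing notes. Whether counting used strand, the read length and the gene annotation are not given in the sources used here. Zero RPKM is written as 1e-04 in the deposited values. Of 15596 lines, 1 was incomplete and 13 had dates for symbols, and 15582 were kept; genes later in the alphabet than Olfr272 were not analysed here.

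Depth is not stated in the table. The low RPKM values of a gene were whole multiples of 1 step in 64.2% of 50727 low values (tolerance 0.02 times the reads), too few to recover counts, so no count test was run and depths are approximate (lowest library about 26600000 reads).

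RPKM values were tested with limma 3.58.1 in R 4.3.3 (with trend, 1 mean per dose, all 24 libraries sharing 1 spread) on log2(RPKM + 1), for the 6540 genes that reached 0.5 RPKM in 6 libraries, two-sided, with Benjamini-Hochberg adjustment over all of them and a threshold of 0.05. The fit was tested on simulated data. A fold on this scale understates the change of low genes. Alternatives were 2 other pseudocounts, 2 other filters, 2 other scalings, the title tag as a term or held fixed, only the groups compared, no trend, and leaving out each library. Pairs of coding sequences, each the longest reading frame of the longest coding transcript, and promoter windows were aligned with Biopython 1.88.

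The members and the gene lists were chosen with earlier results of these data known. Every member is named; of the other lists, up to 3 called genes per direction and comparison with control with the largest absolute fold were eligible. For each member the 3 tested genes with the highest r are given by the same rule, or only the first for Ces1d, Ces1e and Ces1f.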

Additional observations from a re-analysis of the deposited data

Results flagged for a closer look

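In 3 of the 32 groups formed by 8 genes and 4 doses, 1 library stood far from the other 5 of its dose by Dixon's test, where chance flags about 1 in 20 groups. Control library 3 had 93.9 RPKM of Ces1b, with the nearest control library at 57.8 RPKM. Control library 8 had 690.9 RPKM of Ces1c, below the nearest control library at 780.2 RPKM. At 1 g/L, library 49 had 63.3 RPKM of Ces1f, below the nearest library of that dose at 78.1 RPKM.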

How the results depend on the processing

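The falls of Ces1b, Ces1c and Ces3a at 2 and 3.5 g/L and of Ces3b at 3.5 g/L were called in every alternative run. At 3.5 g/L no alternative could include the title tag. At 1 g/L, the 2 of 8 genes called became 0 without a filter on low values, with the title tag as a term, within tag L1, and without control libraries 3 and 8 (an alternative chosen after seeing the data). The count also became 0 without control library 3 or without library 51, 52, 53 or 54 of 1 g/L. It became 1 without control library 6, control library 8 or library 50 of 1 g/L. With the tag as a term, 3 of 8 were called at 2 g/L in place of 6; with quantile normalization, 2 were called between 3.5 and 2 g/L in place of 1. Leaving out 1 library at a time gave 0 to 3 called at 1 g/L, 5 to 6 at 2 g/L, 5 to 6 at 3.5 g/L, 4 to 4 between 2 and 1 g/L, 1 to 2 between 3.5 and 2 g/L and 5 to 6 for the slope. The sign turned for Ces3b at 1 g/L with the tag as a term (0.08) and within tag L1 (0.08). Without control libraries 3 and 8 it turned for Ces1d at 1 g/L (-0.085), 2 g/L (-0.099), 3.5 g/L (-0.082) and over dose (-0.017), and for Ces1e at 1 g/L (-0.19). None of these was called, and the cause was not tested. Leave-one-out folds on both sides of 0 were those of Ces1e at 1 g/L (-0.029 to 0.255), 2 g/L (-0.195 to 0.089), 3.5 g/L (-0.126 to 0.159) and over dose (-0.043 to 0.022), Ces1d between 2 and 1 g/L (-0.121 to 0.191) and between 3.5 and 2 g/L (-0.188 to 0.124), and Ces1f between 3.5 and 2 g/L (-0.094 to 0.114). Over all genes, 73.4%, 80.6% and 75.0% of calls at 1, 2 and 3.5 g/L were higher, against 40.7%, 50.3% and 50.2% with median-ratio scaling, which moved the median fold of all genes from 0.12 to 0.00 at 2 g/L. All calls at 1 g/L numbered 744, and 92 with the tag as a term, 50 within L1 and 424 without control libraries 3 and 8; at 2 g/L they numbered 3395, and 864 with the tag. Between 2 and 1 g/L they numbered 1855, and 837 with the tag and 589 within L2; between 3.5 and 2 g/L they numbered 675, and 446 from only the groups compared. Leaving out single libraries gave 456 to 971 calls at 1 g/L. Depth limits Ces1a. No paired analysis was possible because the replicate numbers in the titles are not shared between doses.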
